A study of Mus musculus with 2 samples.

Results

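The genes described here are the 34 features of the count table whose symbols name a cyclic nucleotide phosphodiesterase (24 genes, from *Pde1a* to *Pde11a*) or an adenylyl cyclase (10 genes, *Adcy1* to *Adcy10*), out of 31055 features. A gene belongs to the group by its symbol, whatever its counts. Adenylyl cyclases make cyclic AMP (cAMP) from ATP, and phosphodiesterases (PDEs) hydrolyse cAMP, cyclic GMP (cGMP) or both. The cyclases differ in their regulation: ADCY1 and ADCY8 are stimulated by calcium and calmodulin, ADCY5 and ADCY6 are inhibited by calcium, ADCY2 and ADCY7 respond to protein kinase C and G protein beta-gamma subunits, and ADCY10 is soluble and stimulated by bicarbonate. Among the PDEs, the PDE1 enzymes are activated by calcium and calmodulin, PDE4, PDE7 and PDE8 act on cAMP, PDE5, PDE6 and PDE9 act on cGMP, and PDE3, PDE10 and PDE11 act on both. *Pde6d*, *Pde6g* and *Pde6h* carry the family symbol but encode accessory proteins without catalytic activity.

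The study asked whether neurons of the mouse olfactory bulb that send axons to different cortical targets differ in their transcriptomes. A retrogradely transported adeno-associated virus, which expresses the green fluorescent histone H2B-GFP from the ubiquitous CAG promoter, was injected into the anterior olfactory nucleus (AON) or the posterior piriform cortex (pPCx). Nuclei of the bulb were sorted for GFP and a DNA dye, and their RNA was counted with 10x droplets and unique molecular identifiers (UMIs). There is 1 AON and 1 pPCx library. The pPCx library comes from 1 female C57BL/6 mouse aged 11 weeks by the study's methods. The age and number of animals behind the AON library were not given in the sources used here, and all nuclei of both libraries come from mice given this virus. Within the projection neurons, *Xist*, transcribed from the inactive X chromosome, was at 0 UMIs for AON and at 1744 for pPCx, while the Y-linked *Eif2s3y* was at 139 and 0. Sex, animal, library and injection site therefore cannot be told apart in any comparison between the libraries. With 1 library per group no test between groups was possible, nuclei are not replicates, and intervals below are 95% intervals that cover counting error only.

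Of 188 AON and 74 pPCx barcodes, 102 and 63 had 1000 or more genes and were kept, with medians of 22267 and 31581 UMIs. No barcode was shared by the libraries. Nuclei with more UMIs of *Slc17a7*, *Slc17a6*, *Tbx21* and *Cdhr1*, which mark the glutamatergic mitral and tufted cells, than of *Gad1*, *Gad2* and *Slc32a1*, which mark GABAergic neurons, were called projection neurons. There were 25 in the AON library (24.5%, exact interval 16.5 to 34.0) and 59 in the pPCx library (93.7%, 84.5 to 98.2). The reverse, with 3 or more GABAergic UMIs, gave 47 AON and 2 pPCx GABAergic nuclei, and 30 AON and 2 pPCx nuclei remained. Of the 30, 18 were high in a list of astrocyte markers, 9 in a list of oligodendrocyte markers and 3 in neither. Markers that the rule did not use fitted these names: the summed level of 7 other projection neuron genes was 2774 CPM (UMI counts per 1000000 UMIs of the class) in AON and 2811 CPM in pPCx projection neurons against 75.5 CPM in AON GABAergic nuclei, and that of 9 other interneuron genes was 6020 CPM in AON GABAergic nuclei against 127 and 137 CPM. Summed lists for oligodendrocyte precursors, microglia, endothelial and mural cells, cortical glutamatergic neurons and olfactory sensory neurons lay between 2.15 and 256 CPM in the projection neurons. In the pPCx ones *Pdgfra*, *Csf1r*, *C1qa*, *Tmem119*, *Cldn5* and *Rgs5* were at 0, while *Vcan*, *Cx3cr1*, *P2ry12*, *Flt1*, *Pecam1* and *Pdgfrb* were counted. The astrocyte list was higher, at 403 CPM in AON and 222.5 CPM in pPCx projection neurons, and at 758 CPM in AON GABAergic nuclei. The interneuron list was at 1010 CPM in astrocyte marker-high, 950 CPM in oligodendrocyte marker-high and 5945 CPM in the 3 other remaining AON nuclei. Of the AON projection neurons, 8 had fewer than 3 excitatory UMIs, and 3 of those 8 held 88 to 115 UMIs of the astrocyte list. These 3 held 88 of the class's 326 *Pde4b* UMIs, and 1 of them had 7033 CPM of *Pde4b*. The oligodendrocyte list summed to 145 CPM in AON projection neurons and reached 1969 CPM in 1 nucleus. Among those with 3 or more excitatory UMIs it reached 444 CPM. Values of *Pde7b*, *Pde4b* and *Pde8b* are also given without the nuclei of fewer than 3 excitatory UMIs. Without them *Pde1c* fell from 65.3 to 53.1 CPM and *Pde3a* from 27.7 to 22.75 CPM in AON projection neurons. The deepest AON projection neuron held 24.6% of that class's UMIs.

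Of the 34 genes, 27 had 20 or more UMIs over the kept nuclei, 5 had 1 to 19 (*Pde4c*, *Pde6b*, *Pde6c*, *Pde6g* and *Pde6h*), and *Pde2a* and *Adcy4* had 0 in all barcodes. In all, 23145 UMIs of these genes were counted. A gene overlapped by another cannot always be counted. The annotated span of *Pde2a* is covered to 99.99% by the protein-coding gene *Gm45837* on the same strand, itself at 0 UMIs, so its 0 does not bear on whether *Pde2a* is transcribed. *Adcy8* shares 46.5% of its span with *Gm21798* on the opposite strand. Longer genes had more UMIs: over the 25 genes with 20 or more UMIs in pPCx projection neurons, CPM and gene span had a Spearman rho of 0.812, against 0.523 over 9679 genes. These are correlations across genes within 1 library, genes are not replicates, and the cause was not tested. Levels of single genes are therefore ranked against each other per 100 kb of gene span, and their CPM values compare 1 gene between classes. Sums and shares over several genes are not scaled by span and carry this link with gene length.

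The sequence before the start site of 4 genes is shown because they had the largest ratios in either direction between the sets of pPCx projection neurons described below: *Pde1a* and *Pde7b* were higher in one set, and *Pde4b* and *Adcy2* in the other. Each run is the 250 bases upstream of a RefSeq start (GRCm38.p6), 5′ to 3′ on the gene's own strand, and capitals mark the 5 bases of a cAMP response element half-site (TGACG, or CGTCA on the other strand), the core bound by CREB, a transcription factor activated by cAMP signalling.
Pde1a, chr2:80038903-80039152, minus strand: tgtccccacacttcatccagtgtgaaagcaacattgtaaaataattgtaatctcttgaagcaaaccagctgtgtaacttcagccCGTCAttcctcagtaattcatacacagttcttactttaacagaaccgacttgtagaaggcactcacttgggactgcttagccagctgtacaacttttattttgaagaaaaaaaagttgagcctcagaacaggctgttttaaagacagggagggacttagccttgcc
Pde7b, chr10:20548329-20548578, minus strand: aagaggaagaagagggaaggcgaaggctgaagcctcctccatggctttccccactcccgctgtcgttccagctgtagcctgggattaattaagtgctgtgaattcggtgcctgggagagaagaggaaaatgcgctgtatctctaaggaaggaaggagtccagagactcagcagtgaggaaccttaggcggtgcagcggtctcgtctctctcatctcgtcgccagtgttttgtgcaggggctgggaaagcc
Pde4b, chr4:102421305-102421554, plus strand: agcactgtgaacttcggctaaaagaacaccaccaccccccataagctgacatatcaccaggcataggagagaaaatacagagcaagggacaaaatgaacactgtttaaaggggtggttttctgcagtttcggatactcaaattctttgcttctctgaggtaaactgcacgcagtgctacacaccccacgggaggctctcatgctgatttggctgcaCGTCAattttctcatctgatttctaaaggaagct
Adcy2, chr13:68999542-68999791, minus strand: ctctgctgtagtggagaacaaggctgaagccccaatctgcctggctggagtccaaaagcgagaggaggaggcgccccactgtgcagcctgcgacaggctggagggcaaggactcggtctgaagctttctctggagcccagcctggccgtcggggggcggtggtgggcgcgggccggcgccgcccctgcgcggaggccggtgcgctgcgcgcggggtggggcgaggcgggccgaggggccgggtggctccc

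Other annotated starts of *Pde1a* and *Pde4b* exist and are not printed. For both genes the printed window is the only 1 with the half-site, and the windows of their other starts lack it. The printed starts of *Pde1a*, *Pde7b* and *Pde4b* lie inside the annotated gene spans, and which starts these nuclei use was not tested. RefSeq promoters were matched for 25 of the 34 genes. The half-site was found in a window of 7 of these 25 (*Adcy7*, *Adcy9*, *Pde1a*, *Pde4a*, *Pde4b*, *Pde6h* and *Pde8a*), against 19.8% of 27025 genes; by window, 7 of the 49 windows of these genes held it (14.3%), against 17.8% of 32851 windows. The full element TGACGTCA was in 0 of the 25, against 1.77% of all genes, and the palindromic EBF site, the motif of the family of *Ebf1*, was in 0 of the 25, against 0.914%. Both strands were searched, and a match says only that the letters are there.

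The classes of nuclei differed in the transcript levels of these genes. In AON projection neurons the PDE genes together reached 3339 CPM and the cyclases 1503 CPM; in pPCx projection neurons they reached 2269 and 854 CPM, and in AON GABAergic nuclei 3446 and 1248 CPM. Astrocyte marker-high nuclei had 2524 CPM of PDE and 643 CPM of cyclase transcripts. Oligodendrocyte marker-high nuclei stood apart, with 14500 CPM of PDE and 217 CPM of cyclase transcripts. In these 9 nuclei, 87.8% of all PDE UMIs (86.5 to 89.1) came from the single gene *Pde4b*.

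**Figure D1:**
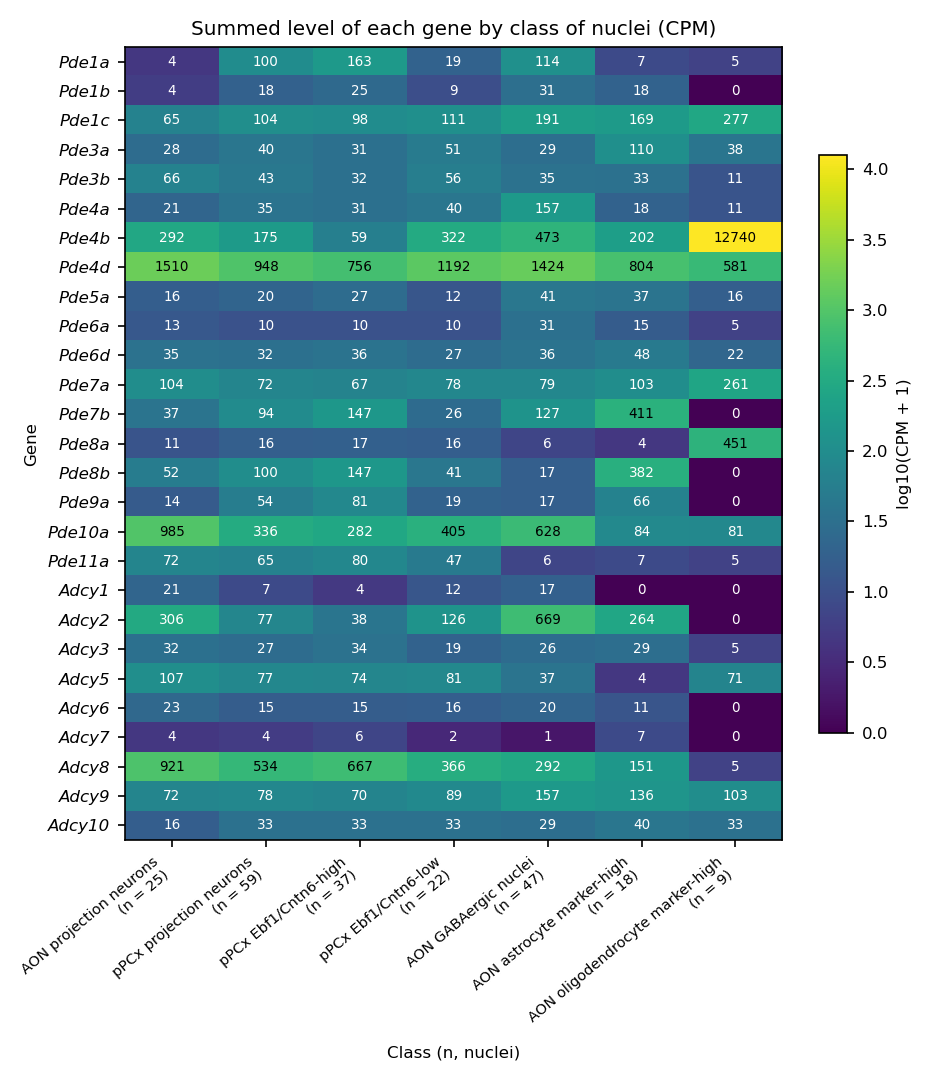
Summed level (CPM) of the 27 genes with 20 or more UMIs in 7 classes of nuclei; colour gives log10(CPM + 1), printed numbers are CPM rounded to whole numbers and n is the number of nuclei. *Pde4b* at 12740 CPM in the oligodendrocyte marker-high nuclei is the highest value, while *Pde4d* is above 500 CPM in each of the 7 classes.

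*Pde4d*, a cAMP-specific PDE of chromosome 13 (108449948 to 109953461, GRCm38), supplied the largest share of PDE UMIs in every neuronal class: 45.2% in AON projection neurons, 41.8% in pPCx projection neurons and 41.3% in AON GABAergic nuclei. It was counted in all 59 pPCx projection neurons and in all 47 AON GABAergic nuclei. Per length, however, it ranked behind other genes. In AON projection neurons *Adcy8* came first with 409 CPM per 100 kb, followed by *Pde10a* with 214, *Pde7a* with 118, *Adcy6* with 116 and *Pde4d* with 100. In pPCx projection neurons *Adcy8* was again first with 237 CPM per 100 kb, and *Pde7a* (81.3), *Pde6d* (81.3) and *Adcy6* (76.9) followed. In GABAergic nuclei *Pde4a* led with 331 CPM per 100 kb and *Adcy2* came next with 176. In astrocyte marker-high nuclei *Pde8b* (169) and *Pde7b* (126) led, and in oligodendrocyte marker-high nuclei *Pde4b* (2451) and *Pde8a* (373).

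**Figure D2:**
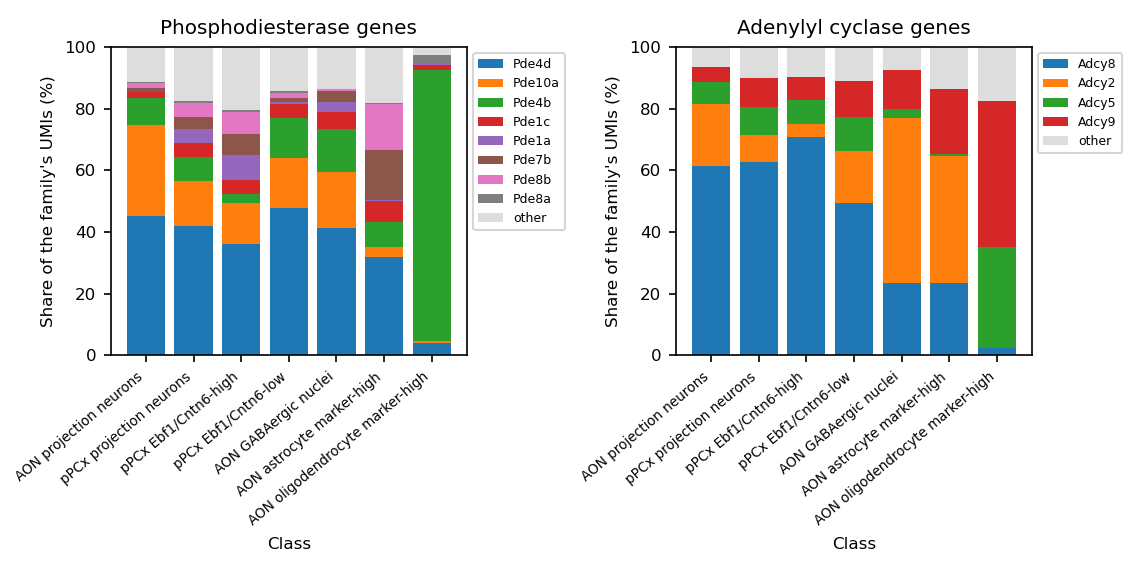
Share (%) of each family's UMIs by gene in 7 classes; bars are stacked, and grey pools the remaining genes. *Adcy8* takes 61.3% of cyclase UMIs in AON and 62.6% in pPCx projection neurons, whereas *Adcy2* takes 53.6% in AON GABAergic nuclei.

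Cyclase levels differed between projection neurons and GABAergic nuclei of the AON library. *Adcy8* (ENSMUSG00000022376, chromosome 15, 64697084 to 64922296), the calcium-stimulated cyclase, had 921 CPM (865 to 979) in projection neurons and 292 CPM (263 to 323) in GABAergic nuclei, 3.16-fold higher in the former (2.80 to 3.56). Single projection neurons ranged from 0 to 3024 CPM with a median of 760, and single GABAergic nuclei from 0 to 2285 CPM with a median of 71.1, so the classes overlapped. The overlapping gene *Gm21798* differed in the same direction, with 487 and 206 CPM; its part in the *Adcy8* counts was not tested. *Adcy2* (ENSMUSG00000021536, chromosome 13, 68620043 to 68999541), a cyclase conditionally stimulated by beta-gamma subunits, went the other way: 306 CPM in projection neurons and 669 CPM in GABAergic nuclei, 2.19-fold higher in the latter (1.93 to 2.48). *Adcy5*, the calcium-inhibited form that dominates in striatal neurons, was 2.90-fold higher in projection neurons (107 against 37.0 CPM), and *Adcy9*, a cyclase inhibited through calcineurin, was 2.17-fold higher in GABAergic nuclei (72.5 against 157 CPM). *Adcy3*, the cyclase of olfactory sensory cilia, was low in both, with 32.2 and 26.0 CPM and a ratio whose interval included 1 (0.752 to 2.05).

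The PDE genes with higher levels in GABAergic nuclei included all 3 members of the calcium-activated PDE1 group. *Pde1a* (ENSMUSG00000059173, chromosome 2, 79834453 to 80129458), which hydrolyses both nucleotides and prefers cGMP, had 4 UMIs in AON projection neurons (3.58 CPM) and 145 in GABAergic nuclei (114 CPM), 31.9-fold higher in the latter (12.2 to 118.5). Its UMIs came from 18 of 47 GABAergic nuclei (38.3%), which ranged from 0 to 904 CPM, and from 4 of 25 projection neurons; after thinning each nucleus to 5000 UMIs the expected shares were 24.0% and 1.03%. *Pde1b* was 6.86-fold higher (4.47 against 30.7 CPM) and *Pde1c* 2.93-fold higher (65.3 against 191 CPM) in GABAergic nuclei, but 141 of the 243 GABAergic *Pde1c* UMIs came from 2 nuclei, without which the level was 82.2 CPM and the log2 ratio went from -1.54 to -0.33. *Pde4a*, a short cAMP-specific gene, was counted in 41 of the 47 GABAergic nuclei and reached 157 CPM there against 20.6 CPM in projection neurons, a 7.64-fold difference (4.95 to 12.3). *Pde7b* was 3.47-fold higher (36.7 against 127 CPM), and 11.2-fold higher (6.24 to 22.1) without the projection neurons of fewer than 3 excitatory UMIs; with each nucleus weighted equally its log2 ratio was -0.16, within 2-fold. *Pde5a* was 2.54-fold higher (16.1 against 40.9 CPM), but 28 of its 52 GABAergic UMIs came from 2 nuclei, without which the level was 19.4 CPM. *Pde6a* was 2.51-fold higher (12.5 against 31.5 CPM). *Pde4b* was within 2-fold (292 against 473 CPM), but 2.105-fold higher in GABAergic nuclei without the projection neurons of fewer than 3 excitatory UMIs.

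Fewer PDE genes leaned towards projection neurons. *Pde11a*, a dual-substrate enzyme, had 71.6 CPM in AON projection neurons, 65.3 CPM in pPCx projection neurons and 6.29 CPM in GABAergic nuclei, 11.4-fold higher in AON projection neurons than in GABAergic nuclei (5.50 to 27.25). Of its 80 UMIs in AON projection neurons, 37 came from 2 nuclei. Without these 2 the level was 42.6 CPM and the log2 ratio to GABAergic nuclei went from 3.43 to 2.69. With all nuclei kept, the levels in both projection neuron classes differed by less than the counting error (ratio 1.10, 0.826 to 1.45). *Pde8b*, a cAMP-specific enzyme of high affinity, was 3.14-fold higher in projection neurons (51.9 against 16.5 CPM, 1.88 to 5.45), but 11 of its 58 UMIs came from the 3 nuclei with astrocyte markers. Another 29 came from 2 other nuclei, without which its level was 37.9 CPM and the log2 ratio went from 1.63 to 1.19. Without all nuclei of fewer than 3 excitatory UMIs its level was 44.55 CPM. *Pde10a*, best known from striatal medium spiny neurons, was 985 CPM in projection neurons and 628 CPM in GABAergic nuclei, within 2-fold.

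A gene entered the counts of differences with 20 or more UMIs over both classes, and a log2 ratio of summed CPM, with 0.5 UMI added to each sum, of 1 or more in size counted as a 2-fold difference. Of the 34 genes, 26 had the UMIs needed. Of these, 4 were at least 2-fold higher in projection neurons (15.4%), against 15.2% of all 9808 genes compared, and 9 were at least 2-fold higher in GABAergic nuclei (34.6%), against 16.1% of all genes. The median log2 ratio of the 26 was -0.06, the same to 2 decimals as that of all genes. Among 59 other genes of cyclic nucleotide signalling (G protein alpha subunits, protein kinases A and G, anchoring proteins, guanylyl cyclases and other effectors), 46 had enough UMIs, 8 were higher in projection neurons and 15 in GABAergic nuclei. The highest log2 ratios towards projection neurons were those of the natriuretic peptide receptor *Npr1* (5.34), the anchoring protein *Akap13* (4.72) and the cAMP-activated exchange factor *Rapgef3* (3.75). Those towards GABAergic nuclei were the nitric oxide-sensitive guanylyl cyclase subunits *Gucy1a1* (-4.60) and *Gucy1b1* (-3.39) and the cGMP-dependent kinase *Prkg2* (-3.00). *Gucy1a1* had 1 UMI in projection neurons and *Npr1* had 1 in GABAergic nuclei, so both ratios rest on few counts.

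**Figure D3:**
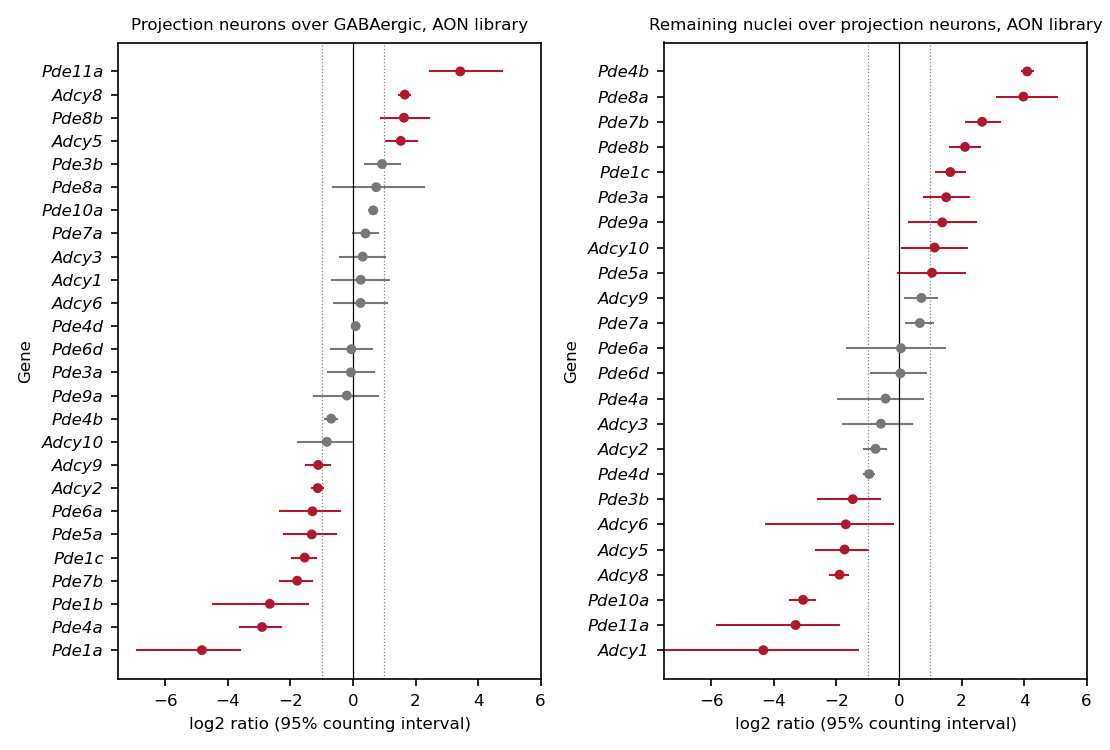
log2 ratios of summed CPM with 95% counting intervals in the AON library for projection neurons over GABAergic nuclei (left) and remaining nuclei over projection neurons (right); red marks ratios of 2-fold or more and dotted lines mark 2-fold. Left, 4 genes lie right of the upper dotted line and 9 left of the lower one; right, the counts are 9 and 7, and *Adcy1*, with 0 UMIs in the remaining nuclei, is placed by the 0.5 UMI added to each sum.

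The oligodendrocyte and astrocyte marker-high nuclei of the AON library led in different PDE4, PDE7 and PDE8 genes. *Pde4b* (ENSMUSG00000028525, chromosome 4, 102087543 to 102607259), a cAMP-specific PDE, had 2346 UMIs in the 9 oligodendrocyte marker-high nuclei, 12740 CPM (12230 to 13270). The single nuclei ranged from 0 to 17240 CPM with a median of 13000, and 8 of the 9 had a UMI. The nucleus without *Pde4b* had the least of the oligodendrocyte list (532 CPM) and the most of the interneuron list (6254 CPM) in the set. It had 3593 CPM of *Pde4d*, and its place in this set is uncertain. Astrocyte marker-high nuclei had 202 CPM and projection neurons 292 CPM, so that the oligodendrocyte marker-high level was 43.7-fold that of projection neurons (38.9 to 49.2), or 56.7-fold (49.6 to 65.1) without the projection neurons of fewer than 3 excitatory UMIs. *Pde8a* was also highest in these nuclei: 83 UMIs and 451 CPM, against 3.67 CPM in astrocyte marker-high nuclei, 10.7 CPM in projection neurons and 6.29 CPM in GABAergic nuclei, 42.0-fold above projection neurons (22.8 to 84.5). *Pde7a* was 2.51-fold and *Pde1c* 4.24-fold above projection neurons there. For *Pde7a* the deepest nucleus, with 31.3% of the set's UMIs, had 607 CPM, and the nucleus without *Pde4b* had 665 CPM. The others had 0 to 105 CPM of *Pde7a*, against 104 CPM in projection neurons. *Pde8a* was at 0 in the deepest nucleus and in the 1 without *Pde4b*. The cyclases were low in the 9 nuclei. *Adcy2* had 0 UMIs, at least 18.8-fold lower than in projection neurons at a floor of 3 UMIs for the class, and *Adcy8* had 1 UMI.

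In the 18 astrocyte marker-high nuclei *Pde7b* and *Pde8b* led. *Pde7b* (ENSMUSG00000019990, chromosome 10, 20398004 to 20725078) reached 411 CPM (339 to 495) with UMIs in 15 of 18 nuclei, and *Pde8b* (ENSMUSG00000021684, chromosome 13, 95024454 to 95250336) reached 382 CPM (312 to 463) with UMIs in 14 of 18. Both had 0 UMIs in all 9 oligodendrocyte marker-high nuclei. Compared with projection neurons, *Pde7b* was 11.2-fold higher (7.78 to 16.5), or 36.2-fold (19.9 to 72.1) without the projection neurons of fewer than 3 excitatory UMIs. *Pde8b* was 7.36-fold higher (5.29 to 10.3), or 8.58-fold without them. Also higher were *Pde9a*, a cGMP-specific enzyme, by 4.62-fold (66.1 against 14.3 CPM) and *Pde3a*, a cGMP-inhibited enzyme, by 3.97-fold (110 against 27.7 CPM). *Pde10a* was 11.7-fold lower (84.5 CPM), *Adcy8* 6.11-fold lower (151 CPM, with 48.8% of its UMIs in 1 nucleus) and *Adcy5* 29.2-fold lower, on 1 UMI (5.15 to 1164). The nucleus with most *Adcy8* had the least of the astrocyte list (719 CPM) and the most of the interneuron list (4491 CPM) in the set. *Adcy2* remained at 264 CPM, near the 306 CPM of projection neurons.

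Taking the 30 remaining AON nuclei as 1 class, 24 of the genes had enough UMIs; 9 were at least 2-fold higher in the remaining nuclei (37.5%), against 23.4% of all 8579 genes, and 7 were at least 2-fold higher in projection neurons (29.2%), against 18.2%. Besides the genes above, *Adcy10* (2.20-fold, on 17 and 18 UMIs) was higher in the remaining nuclei, and *Pde11a*, *Adcy6* and *Pde3b* in projection neurons by 11.5-fold, 3.72-fold and 2.89-fold. *Pde5a* counts among the 9 at 2.07-fold (0.988 to 4.30), but 10 of its 16 UMIs came from 1 nucleus, without which the log2 ratio went from 1.05 to -0.26. *Adcy1* had 0 UMIs in the remaining nuclei and 23 in projection neurons, at least 3.29-fold lower at a floor of 3 UMIs for the class. Among 41 other signalling genes that could be compared, the remaining nuclei were higher for 3 and projection neurons for 11. The G protein subunit *Gnao1* had a log2 ratio of 3.07, *Gucy1b1* 1.96 and *Rapgef2* 1.28. The protein kinase A inhibitor *Pkib* (-5.72) and *Npr1* (-5.52), both at 0 UMIs in the remaining nuclei, and the cGMP-dependent kinase *Prkg1* (-3.95) had the lowest ratios.

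Between the projection neurons of both libraries, differences were fewer, and they came with the differences in sex and library described above. *Adcy2* had 306 CPM in AON (274.5 to 340) and 76.9 CPM in pPCx projection neurons (66.0 to 89.0), 3.98-fold higher in the AON library (3.31 to 4.80). Single nuclei ranged from 0 to 3086 CPM in the AON library with a median of 130, and from 0 to 469 CPM with a median of 29.15 in the pPCx library. *Pde10a* (ENSMUSG00000023868, chromosome 17, 8525372 to 8986648) was 2.93-fold higher in the AON library (985 against 336 CPM, 2.67 to 3.22), and its ranges overlapped widely, from 0 to 2939 and from 0 to 1571 CPM. *Adcy1*, the brain-enriched calcium-stimulated cyclase, was 2.82-fold higher on few UMIs (23 against 17, 1.44 to 5.62). *Adcy8* and *Pde4d* were 1.72-fold and 1.59-fold higher in the AON library, within 2-fold.

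*Pde1a* showed the largest difference towards the pPCx library, with 4 UMIs in AON and 232 UMIs in pPCx projection neurons (3.58 and 99.6 CPM), a 27.8-fold difference (10.7 to 103). It was counted in 37 of 59 pPCx nuclei and in 4 of 25 AON nuclei, and no AON nucleus was above 16.0 CPM while the pPCx nuclei reached 460 CPM. *Pde1b* was 3.94-fold higher in the pPCx library (4.47 against 17.6 CPM, 1.56 to 12.8) and *Pde9a* 3.75-fold (14.3 against 53.7 CPM, 2.22 to 6.76). *Pde9a* UMIs came from 3 of 25 AON and 40 of 59 pPCx nuclei. *Adcy10* was 2.05-fold higher in the pPCx library on 18 and 77 UMIs (1.22 to 3.65). *Pde7b* had 36.7 CPM in AON and 94.1 CPM in pPCx projection neurons, 2.56-fold higher in the pPCx library (1.83 to 3.67), but 29 of the 41 AON UMIs came from the 3 nuclei with astrocyte markers. Among the 17 AON nuclei with 3 or more excitatory UMIs, *Pde7b* was at 11.4 CPM, and the log2 ratio went from -1.34 to -2.99. The 3 nuclei with astrocyte markers had 641, 750 and 1193 CPM, and no other AON projection neuron was above 51.0 CPM. With each of the 25 AON nuclei weighted equally, these 3 included, the log2 ratio was 0.05. The direction for *Pde7b* thus depended on the weights given to nuclei in a class that held these 3. Equal weights without them were not tried.

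Of the 26 genes with enough UMIs, 3 were at least 2-fold higher in AON (11.5%) and 5 in pPCx projection neurons (19.2%), against 6.66% and 9.82% of all 11172 genes. The median log2 ratio was 0.13, against -0.06 for all genes. The other signalling genes differed less: of 44 with enough UMIs, 0 were at least 2-fold higher in AON and 2 in pPCx projection neurons, *Gnaz* (log2 ratio -1.54), a G protein subunit that inhibits cyclases, and *Pkib* (-1.41). The next lowest and the 3 highest ratios were within 2-fold: *Popdc3* (-0.82), *Akap13* (0.99), *Rapgef4* (0.74) and *Cap1* (0.67).

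**Figure D4:**
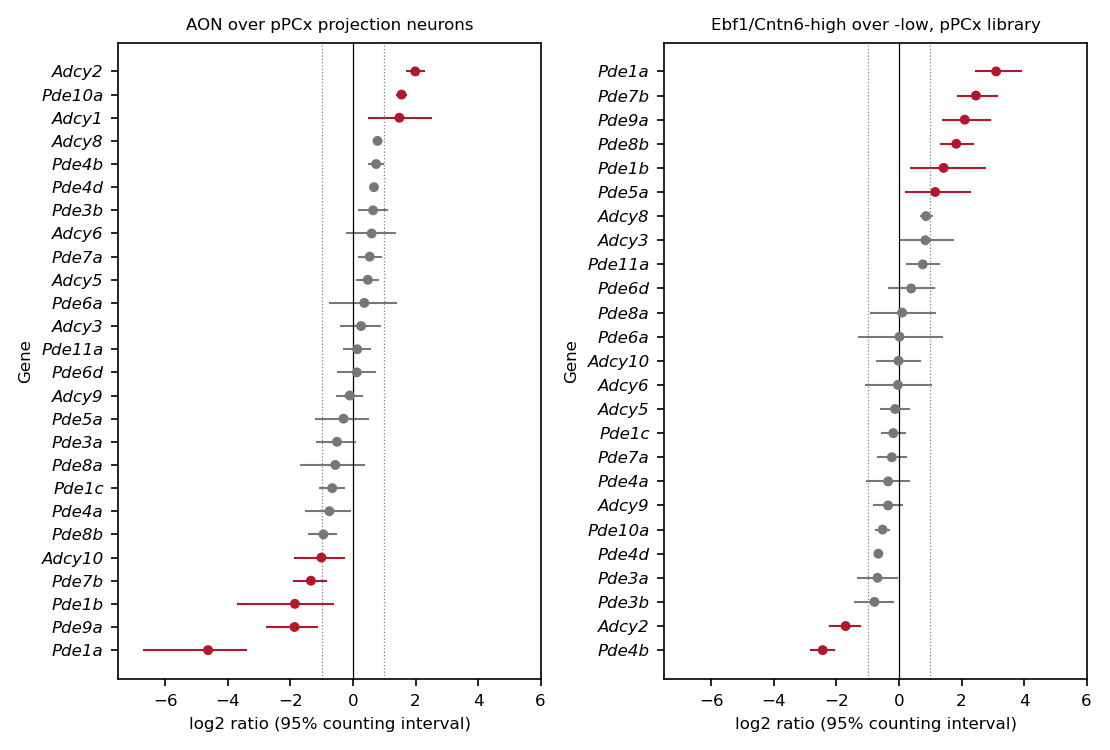
log2 ratios of summed CPM with 95% counting intervals for AON over pPCx projection neurons (left) and for Ebf1/Cntn6-high over -low projection neurons of the pPCx library (right); red marks ratios of 2-fold or more. *Pde1a* has the largest ratio in both panels, towards the pPCx library on the left (-4.63) and towards the Ebf1/Cntn6-high nuclei on the right (3.11).

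The pPCx projection neurons themselves held 2 sets of nuclei, separated by the transcription factor *Ebf1* and the contactin *Cntn6*, neither of which is among the genes described. At a threshold of 5 UMIs of both genes per 10000, 37 nuclei were Ebf1/Cntn6-high and 22 were low. No nucleus lay between 1.00 and 14.3 UMIs per 10000. This contrast lies within 1 library and 1 animal, so the sex difference above does not enter it. The high nuclei had a median of 31440 UMIs and the low nuclei 41131.5, and the list of projection neuron markers reached 2681 and 2975 CPM.

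A group of 4 PDE genes was higher in the Ebf1/Cntn6-high nuclei: *Pde1a*, *Pde7b*, *Pde9a* and *Pde8b*. *Pde1a* had 163 CPM in the high nuclei (142 to 187) and 18.5 CPM in the low nuclei (11.2 to 29.0), 8.81-fold higher (5.51 to 14.9). High nuclei had a median of 159 CPM, low nuclei of 0, with 7 of 37 high nuclei above every low nucleus and 9 of 37 at 0. Thinned to 5000 UMIs per nucleus, the expected shares of nuclei with a *Pde1a* UMI were 43.6% and 11.7%, against 75.7% and 40.9% before thinning; in AON oligodendrocyte marker-high nuclei the shares were 0.964% and 11.1%. *Pde7b* had 147 CPM against 26.4 CPM, 5.59-fold higher (3.73 to 8.70), and 24 of 37 high nuclei lay above every low nucleus. *Pde9a* had 81.3 against 18.5 CPM (4.39-fold, 2.68 to 7.57), and was at 0 in 3 of 37 high and 16 of 22 low nuclei. *Pde8b* had 147 against 41.0 CPM (3.59-fold, 2.56 to 5.15), with 19 of 37 high nuclei above every low nucleus.

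The astrocyte list moved with this contrast. Its 8 genes summed to 313 CPM in the high nuclei, from 0 to 564 CPM in single nuclei, and to 107 CPM in the low nuclei, from 0 to 283 CPM. Of the 8 genes, 6 had UMIs in each set, with *Gjb6* and *Ntsr2* at 0 in the high nuclei and *Aqp4* and *Gjb6* at 0 in the low nuclei. *Pde7b* and *Pde8b* are the leading genes of the AON astrocyte marker-high nuclei, where the list is at 7792 CPM. The part of astrocyte RNA in these differences was not tested. The list of oligodendrocyte precursor markers was at 414 CPM in high and 55.6 CPM in low nuclei, all of it from *Vcan*, with *Pdgfra* and *Cspg4* at 0 in both sets; its part was not tested either.

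In the opposite direction, *Pde4b* was 5.45-fold higher in the Ebf1/Cntn6-low nuclei (322 against 59.1 CPM, 4.24 to 7.08). Its median was 318 CPM in low and 58.5 CPM in high nuclei, and 15 of 22 low nuclei lay above every high nucleus, which reached 146 CPM. The oligodendrocyte list, in whose nuclei *Pde4b* is highest, was at 83.9 CPM in the low and 81.3 CPM in the high nuclei. *Adcy2* was 3.28-fold higher in the low nuclei (126 against 38.4 CPM, 2.35 to 4.65). It was counted in 19 of 22 low and 17 of 37 high nuclei, and 40.0% of the UMIs of the high nuclei came from 1 nucleus. *Adcy8*, by contrast, was 1.82-fold higher in the high nuclei (667 against 366 CPM, 1.61 to 2.06) and was counted in all 59 nuclei; *Gm21798* on the opposite strand had 712 and 378 CPM. *Adcy8* therefore made up 70.8% of cyclase UMIs in the high nuclei (68.2 to 73.4) and 49.3% in the low nuclei (45.7 to 52.9).

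**Figure D5:**
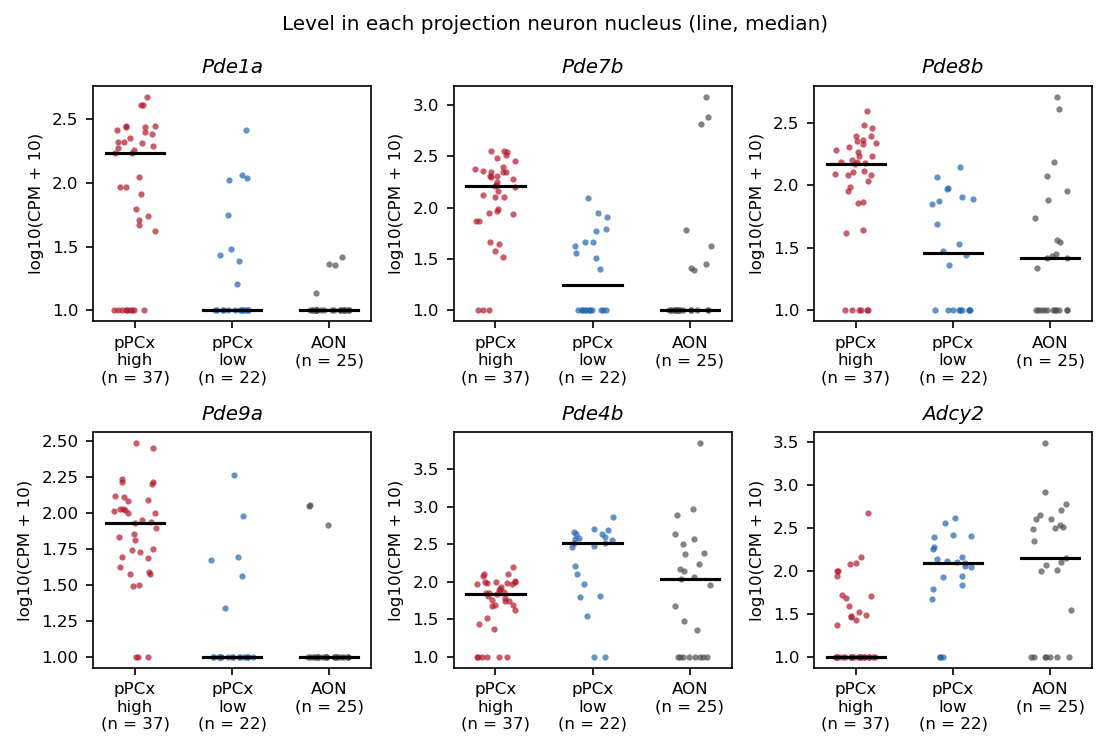
Level of 6 genes in each projection neuron nucleus, as log10(CPM + 10), for the Ebf1/Cntn6-high and -low nuclei of the pPCx library and all AON projection neurons; points are nuclei, placed sideways at random, and lines are medians. *Pde7b* and *Pde8b* are high in many pPCx high nuclei and in a few AON nuclei, and *Pde4b* is above the whole pPCx high set in 15 of 22 low nuclei. The AON nuclei highest in *Pde7b* are the 3 with astrocyte markers and fewer than 3 excitatory UMIs, and those highest in *Pde8b* are among them.

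*Pde1b* (2.80-fold, 24.6 against 8.78 CPM, 1.30 to 6.66) and *Pde5a* (2.29-fold, 26.9 against 11.7 CPM, 1.16 to 4.85) were also higher in the high nuclei, on 41 and 47 UMIs in all. The 3 calcium-activated PDEs were thus not alike: *Pde1c* had 98.2 and 111 CPM (ratio 1.13 towards the low nuclei, 0.872 to 1.47). By substrate, cGMP-specific PDEs summed to 119 CPM in high and 42.0 CPM in low nuclei, and cAMP-specific PDEs to 1225 and 1716 CPM. These sums are not scaled by gene span, and single genes weigh heavily in them. *Pde9a* alone gave 81.3 and 18.5 CPM of the cGMP-specific sums. Among the cAMP-specific genes, *Pde4b* went with the sum. *Pde7b* (147 against 26.35 CPM) and *Pde8b* (147 against 41.0 CPM) went the other way. Of 25 genes with enough UMIs, 6 were at least 2-fold higher in the high nuclei (24.0%), against 10.2% of all 9686 genes, and 2 in the low nuclei (8.0%), against 5.58%. The median log2 ratio was -0.01, against 0.11 for all genes. Among the other signalling genes, 2 of 44 were higher in the high nuclei, *Gnaz* (log2 ratio 1.29) and *Pkib* (1.13), and 3 in the low nuclei, *Prkg1* (-1.67), *Akap13* (-1.56) and *Prkar2b* (-1.16), a regulatory subunit of protein kinase A. *Rapgef2* came next towards the high nuclei, with 0.73, within 2-fold.

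The AON library had 2 projection neurons above the same threshold, and those under it reached 4.91 UMIs of *Ebf1* and *Cntn6* per 10000. The 2 nuclei had 6.08 and 10.96, below every pPCx high nucleus (lowest 14.3) and within the gap seen in that library. Their levels were 0 and 13.0 CPM for *Pde1a*, 0 and 0 for *Pde7b*, 101 and 104 CPM for *Pde9a*, 25.3 and 144 CPM for *Pde8b*, 0 and 13.0 CPM for *Pde4b*, and 304 and 835 CPM for *Adcy2*. For *Pde1a* and *Pde7b* both lay below the medians of the pPCx high nuclei (159 and 152 CPM), for *Pde9a* above it (74.6 CPM), and for *Pde4b* below it (58.5 CPM) and below the low median (318 CPM). For *Adcy2* both were above the low median (115 CPM), and 1 was within the range of the high nuclei. When Ebf1/Cntn6-low nuclei alone were compared between the libraries, 23 from AON and 22 from pPCx, a choice made after the data were seen, *Pde1a* was still 6.19-fold higher in the pPCx library (3 against 19 UMIs, 1.82 to 32.7) and *Pde9a* 4.64-fold (4 against 19 UMIs). All 4 of these AON *Pde9a* UMIs came from 1 nucleus, at 72.75 CPM. *Pde10a* was 2.46-fold, *Adcy8* 2.604-fold and *Adcy2* 2.11-fold higher in the AON library, and *Pde8b* was at 45.9 and 41.0 CPM (ratio 1.12, 0.722 to 1.75).

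The other genes varied little between the projection neuron classes. *Pde6d*, which encodes a carrier of prenylated proteins, had 34.9 CPM in AON and 32.2 CPM in pPCx projection neurons, and *Pde7a* had 104 and 71.7 CPM. *Pde3a* had 27.7 and 39.9 CPM and *Pde3b* 66.2 and 42.5 CPM. *Adcy7* was the rarest counted cyclase, with 3.58 and 4.29 CPM. None of these was past 2-fold between the libraries.

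The pPCx library had only 2 GABAergic and 2 remaining nuclei, too few to describe those classes. Of the pPCx GABAergic UMIs, 81.9% came from 1 nucleus, which had 18.0 UMIs of *Ebf1* and *Cntn6* per 10000 and 9622 CPM of *Pde4d*, against 2311 CPM in the other.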

How the data were processed

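The deposited values are UMI counts per gene and barcode, which the authors made with Cell Ranger 3.1.0 per the file headers; the mouse genome build was not given in the sources used here. From these counts, nuclei were kept at 1000 or more genes and up to 5% UMIs from mitochondrial genes, classed by the marker rule given above, and summed by class to CPM. No doublet caller was run; the authors' sort had a scatter gate for single nuclei, and an alternative left out nuclei above 3 times their class's median UMIs. Log2 ratios had 0.5 UMI added to each sum; intervals of ratios are conditional binomial, of CPM Poisson and of shares Clopper-Pearson, all exact. The code was tested on simulated data. Every gene matching the symbol rule with 20 or more UMIs was named, and of the signalling list the 3 largest ratios in each direction. The symbol rule that defines the members, and the lists, were chosen with earlier results of these data known. Gene spans came by identifier from GENCODE M21 (GRCm38), which matched 30934 of 31055 features. Alternatives changed the gene, excitatory UMI and depth filters, nucleus weights, the added UMIs, the scaling and the Ebf1/Cntn6 threshold, or left out nuclei holding most of a gene's UMIs. Python 3.11.15, numpy 2.4.6, scipy 1.17.1, pandas 2.3.3 and matplotlib 3.10.9 were used.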

Additional observations from a re-analysis of the deposited data

Results flagged for a closer look

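Barcodes below the filter of 1000 genes, which entered no comparison, also held UMIs of these genes. The 86 AON barcodes had 371 of them, 3919 CPM (3530 to 4339), against 5273 CPM in the kept nuclei, and the 11 pPCx barcodes had 105, 9830 CPM (8040 to 11900), against 3340 CPM. The log2 ratio of projection neurons over GABAergic nuclei had opposite signs in the libraries for *Pde5a*, at -1.32 in the AON and 1.28 in the pPCx library, and for *Pde8b*, at 1.63 and -1.62. The pPCx values rest on 2 GABAergic nuclei, with 0 UMIs of *Pde5a* and 18 of *Pde8b*, and the difference between the libraries was not tested.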

How the results depend on the processing

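No paired analysis was possible because both injection sites have a single library. Without the filter on genes, the AON library had 48 projection neurons and 89 remaining nuclei and the pPCx library 11 remaining nuclei, in place of 25, 30 and 2. With each nucleus weighted equally, 5 genes in place of 3 were at least 2-fold higher in AON projection neurons; among Ebf1/Cntn6-low nuclei alone, chosen after seeing the data, 2 in place of 5 were higher in the pPCx library. *Pde7b* changed direction between the libraries in both of these settings, from a log2 ratio of -1.34 to 0.046 and 0.63. Both settings kept the 3 AON nuclei with astrocyte markers, and the cause was not tested. The other 7 genes past 2-fold between the libraries kept their direction in all 8 settings, *Adcy10* falling within 2-fold in 5 of them and *Adcy1* in 1. All 8 genes of the Ebf1/Cntn6 comparison, 13 of the GABAergic comparison and 16 of the comparison with remaining nuclei kept their direction in these settings, but with equal weights 10 of the 13 and 13 of the 16 stayed past 2-fold. In some setting *Adcy2*, *Adcy5* and *Pde7b* fell within 2-fold against GABAergic nuclei, *Pde5a* in the Ebf1/Cntn6 comparison, and *Pde1c* (lowest 0.33), *Adcy8* (-0.64), *Adcy5*, *Adcy6*, *Adcy10* and *Pde5a* between remaining nuclei and projection neurons. Leaving out the 1 or 2 nuclei with most UMIs of a gene in its higher class, also chosen after seeing the data, turned *Pde5a* in remaining nuclei to -0.26 and -1.10 from 1.05. Without 2 such nuclei, *Pde1c*, *Pde5a*, *Pde6a*, *Adcy2* and *Adcy9* fell within 2-fold against GABAergic nuclei, *Pde3a*, *Pde3b*, *Pde9a* and *Adcy10* between remaining nuclei and projection neurons, *Adcy10* between the libraries and *Pde5a* in the Ebf1/Cntn6 comparison. Thinning to 5000 UMIs moved 76 of 91 shares of nuclei with a UMI, so those shares depend on depth. Genes with few UMIs, such as *Adcy1*, *Pde1b* and *Adcy10*, are limited by counting error, and variation between animals could not be measured.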
